A study of Homo sapiens with 6 samples.

Results

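The genes described here are 43 splicing and mRNA export factors: SR proteins, hnRNPs, spliceosome subunits and the TREX export complex, with the kinase UHMK1 and the spliceosome proteins SMU1 and IK. They were chosen by symbol, with earlier results of these data known. Of the 43, 33 had a row in the expression table under the platform annotation, each with 1 row. The other 10 (THOC3, DDX39A, DDX39B, NXF1, SRSF10, HNRNPD, SF3A1, SF3B1, SF3B3 and IK) are not analysed here. The table names 14884 genes, of which 7442 were tested, and all 33 measured factors were among these. The test took the brighter genes, those with a mean log2 signal of at least 5.45 over the 6 arrays, which is the median over all named genes.

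RNA came from A549, a human lung adenocarcinoma cell line grown in culture, 48 hours after lipid transfection of an siRNA. The groups were MYEOV siRNA 1, MYEOV siRNA 2 and a control siRNA, with 2 arrays each and 6 in all. Every group, the control included, was transfected, and no untransfected cells are among the samples. The siRNA sequences and the target of the control siRNA are not stated in the labels. They also leave unsaid whether the arrays of a group stem from different transfections; the p-values therefore cover only the spread between the arrays at hand, which may be technical. Values are log2 RMA signals. Changes are differences of these log2 signals, given with a standard error (SE), and n = 2 arrays per group throughout.

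Pre-mRNA splicing is carried out by the spliceosome, which assembles on each intron from small nuclear ribonucleoproteins (snRNPs) and many other proteins. SF1 and the U2AF heterodimer mark the branch point and the 3′ splice site, the U2 snRNP with its SF3A and SF3B subunits then binds, and the U4/U6.U5 tri-snRNP with PRPF8 joins to form the B complex, which the PRPF19 complex helps to activate. SR proteins mostly promote the use of nearby exons, whereas hnRNPs often repress them. Spliced mRNA is handed to the TREX complex, made of the THO subunits, the helicase DDX39B and the adaptor ALYREF, which recruits the export receptor NXF1 and its partner NXT1. The arrays measured the RNA level of these factors, not splicing or export.

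MYEOV, the targeted gene, had 5.34 and 5.19 with MYEOV siRNA 1, 5.23 and 4.70 with MYEOV siRNA 2 and 6.20 and 6.50 with control siRNA. It fell with siRNA 1 and siRNA 2 (adjusted p = 0.0215 and 0.00516 by limma with Benjamini-Hochberg adjustment). The siRNA 1 call was lost, with adjusted p of 0.0880, 0.146, 0.0671 and 0.112 without siRNA 1 replicate 1, siRNA 1 replicate 2, control replicate 1 and control replicate 2. All 4 measured markers of the A549 epithelium (KRT8, KRT18, KRT19 and EPCAM, of 11 listed) were above the level filter, and the 7 measured fibroblast, leukocyte and endothelial markers of 18 listed were all below it. The summed linear signal of the 4 epithelial markers was 4343 to 4661 with siRNA 1, 3833 to 4175 with siRNA 2 and 4571 to 4590 with control siRNA, and its part in the results was not tested. KRT18, with means of 12.03, 11.86 and 12.06 log2 in that order, made up most of this sum. KRT8, KRT18 and KRT19 had lower means with siRNA 2 than with control siRNA, and EPCAM a higher one (7.24 against 7.01). In bulk RNA, fewer expressing cells and less RNA per cell cannot be told apart.

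The promoters of the called members are shown because these genes moved in opposite directions with MYEOV siRNA 2, ALYREF and THOC5 down and UHMK1 up. Each run is the 250 bases before the first listed transcription start, 5′ to 3′ on the gene's strand, from RefSeq on GRCh38.p14; each gene has a second listed start. They lie at chr17:81891588-81891837 on the minus strand for ALYREF, chr22:29553758-29554007 on the minus strand for THOC5 and chr1:162497555-162497804 on the plus strand for UHMK1. Capitals mark matches, on either strand, to the letters TATAAA of a TATA box, those of the CCAAT box as its name spells them, CCGGAAG of an ETS motif, GGGCGG of a GC box or CACGTG of an E-box, none of which overlap one another in these runs. The fourth called member is SMU1.
ALYREF: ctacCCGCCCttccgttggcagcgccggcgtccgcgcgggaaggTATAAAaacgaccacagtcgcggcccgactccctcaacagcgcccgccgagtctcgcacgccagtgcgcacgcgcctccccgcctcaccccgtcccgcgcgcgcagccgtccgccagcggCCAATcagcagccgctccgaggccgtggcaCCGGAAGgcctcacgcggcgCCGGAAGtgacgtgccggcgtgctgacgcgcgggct
THOC5: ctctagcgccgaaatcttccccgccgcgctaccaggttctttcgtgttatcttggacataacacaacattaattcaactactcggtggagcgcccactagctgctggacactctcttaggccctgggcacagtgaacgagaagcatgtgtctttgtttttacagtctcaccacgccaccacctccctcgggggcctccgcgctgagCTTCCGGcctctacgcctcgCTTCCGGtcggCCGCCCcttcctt
UHMK1: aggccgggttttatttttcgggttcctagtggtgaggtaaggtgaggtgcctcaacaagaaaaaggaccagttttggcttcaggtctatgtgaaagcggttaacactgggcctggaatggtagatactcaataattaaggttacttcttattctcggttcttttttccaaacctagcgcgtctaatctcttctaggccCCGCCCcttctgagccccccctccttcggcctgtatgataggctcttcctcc

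The ALYREF run held 1 TATA box, 1 CCAAT box, 2 ETS motifs and 1 GC box, and 74.4% of its bases were G or C. The THOC5 run held 2 ETS motifs and 1 GC box at 58.0% G or C, and the UHMK1 run 1 GC box at 48.8%. A promoter was listed for 27 of the 33 measured members, with a median of 63.6% G or C against 65.6% over the 6021 tested genes that had one. A GC box was present in 19 of the 27 (70.4%, against 69.7% of the tested genes), a CCAAT box in 13 (48.1% against 35.6%), an ETS motif in 6 (22.2% against 17.1%), a TATA box in 4 (14.8% against 4.70%) and an E-box in 0 (against 9.10%). Of all 27305 listed genes, 42.3% had a GC box, 33.0% a CCAAT box, 8.82% an ETS motif, 11.1% a TATA box and 6.49% an E-box. A match is a match of letters and does not show that a factor binds there.

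ALYREF, SMU1 and UHMK1 changed by a large amount with MYEOV siRNA 2, and they were put on the list with their results known. The other 30 members changed by little, from -0.27 to 0.07 with siRNA 1 and from -0.29 to 0.12 with siRNA 2. With MYEOV siRNA 1, 0 of the 33 were called by limma, against 4.66% of all genes tested. With MYEOV siRNA 2, ALYREF, SMU1 and THOC5 fell and the kinase UHMK1 rose, 4 of 33 (12.1%), against 6.83% of all genes tested. Without ALYREF, SMU1 and UHMK1, 1 of the other 30 was called (3.33%). Here, called means an adjusted p under 0.05 in limma, with the Benjamini-Hochberg adjustment made over all 7442 genes tested.

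**Figure D1:**
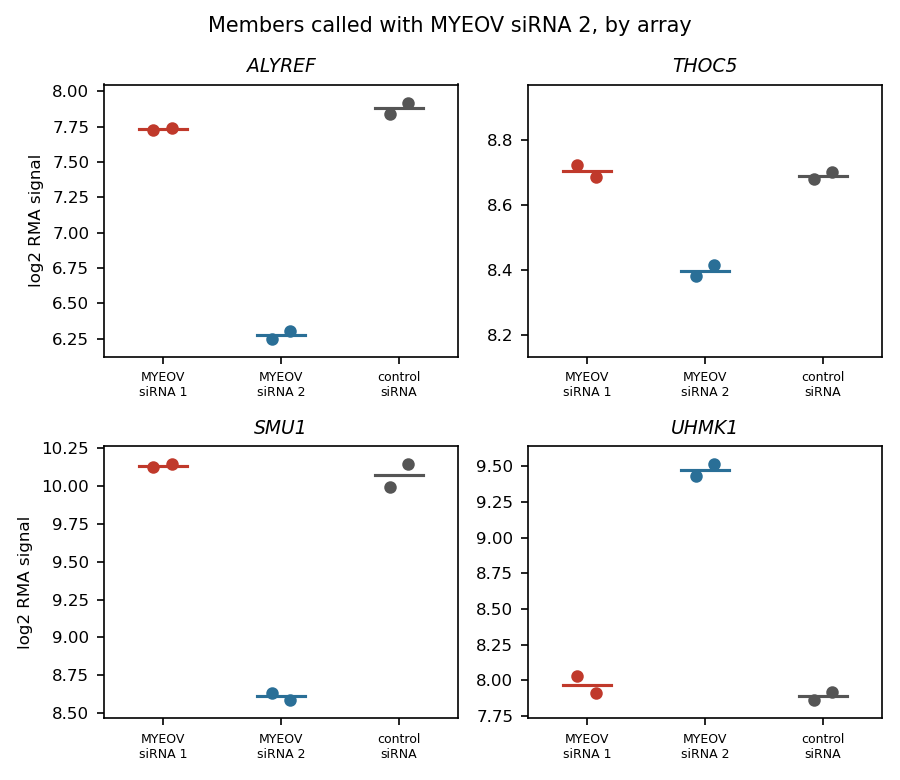
The log2 RMA signal (vertical axis, a separate range for each gene that does not start at 0) of the 4 members called with MYEOV siRNA 2, by group, with 1 point per array and a line at the mean of the 2 arrays. The siRNA 2 arrays lie apart from the other 4 arrays in each gene, below them for ALYREF, THOC5 and SMU1 and above them for UHMK1.

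Among the TREX complex and its partners, ALYREF, the adaptor that binds spliced mRNA and hands it to the export receptor, had the largest change. Its signal was 7.72 and 7.74 with siRNA 1, 6.25 and 6.31 with siRNA 2 and 7.84 and 7.92 with control siRNA. Both siRNA 2 arrays lay far below the other 4, and both siRNA 1 arrays lay slightly below both control arrays. With siRNA 2 ALYREF fell by 1.60 ± 0.07 (SE), to 0.329 times the control signal (limma, Benjamini-Hochberg adjusted p = 0.000108). With siRNA 1 its change was -0.15 ± 0.07 (adjusted p = 0.304), with a 95% confidence interval of -0.31 to 0.01.

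THOC5, a THO subunit, changed much less. It had 8.72 and 8.69 with siRNA 1, 8.38 and 8.42 with siRNA 2 and 8.68 and 8.70 with control siRNA. The siRNA 2 arrays lay below all others, while those of siRNA 1 and control overlapped. It fell by 0.29 ± 0.07 with siRNA 2 (limma, Benjamini-Hochberg adjusted p = 0.0451) and was at 0.02 ± 0.07 with siRNA 1 (adjusted p = 0.930). The siRNA 2 call was close to the threshold and was lost without any 1 of the 6 arrays: the adjusted p was 0.0856 without either siRNA 1 array, 0.180 and 0.158 without siRNA 2 replicate 1 and 2, and 0.131 and 0.134 without control replicate 1 and 2.

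THOC2, the scaffold of the THO complex, and THOC7, another of its subunits, had the lowest changes of the members with siRNA 1. THOC2 was at 9.12 and 9.14 with siRNA 1, 9.34 and 9.35 with siRNA 2 and 9.33 and 9.48 with control siRNA. THOC7 was at 8.26 and 8.38 with siRNA 1, 8.57 and 8.54 with siRNA 2 and 8.41 and 8.73 with control siRNA. The siRNA 1 arrays of both genes lay below both control arrays, and those of siRNA 2 overlapped with control. The changes with siRNA 1 were -0.27 ± 0.08 for THOC2 (limma, Benjamini-Hochberg adjusted p = 0.103) and -0.25 ± 0.11 for THOC7 (adjusted p = 0.280), neither of them called. For THOC7 the change with siRNA 1 was -0.09 without control replicate 2 and -0.41 without control replicate 1.

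THOC1, a core THO subunit, was at -0.17 with siRNA 1 and 0.03 with siRNA 2, and THOC6 at -0.04 and 0.05. NXT1, the cofactor that NXF1 needs to carry mRNA through the pore, had 7.55 and 7.53 with siRNA 1, 7.49 and 7.51 with siRNA 2 and 7.79 and 7.75 with control siRNA. All 4 MYEOV siRNA arrays of NXT1 lay below both control arrays, at -0.23 ± 0.07 with siRNA 1 and -0.27 ± 0.07 with siRNA 2, and neither change passed the test (limma, Benjamini-Hochberg adjusted p = 0.109 and 0.0578). NXT1 was called with siRNA 2 when the filter was set at the 75th percentile of the mean signal, and also when limma's prior had a trend and robust estimation; the stricter filter called it with siRNA 1 too.

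Of the 4 measured proteins of the tri-snRNP, the PRPF19 complex and the B complex, SMU1 was called. SMU1 is a B complex protein that works as a partner of IK (RED), one of the genes not analysed here. SMU1 had 10.12 and 10.14 with siRNA 1, 8.63 and 8.59 with siRNA 2 and 9.99 and 10.14 with control siRNA. The siRNA 2 arrays lay far below the rest, and those of siRNA 1 overlapped with control. It fell by 1.46 ± 0.08 with siRNA 2, to 0.364 times the control signal (limma, Benjamini-Hochberg adjusted p = 0.000154), and was at 0.06 ± 0.08 with siRNA 1 (adjusted p = 0.714).

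PRPF8, the large U5 protein at the core of the spliceosome, had 10.98 and 10.98 with siRNA 1, 10.97 and 10.98 with siRNA 2 and 11.12 and 11.16 with control siRNA. Its arrays did not overlap with control under either siRNA, with changes of -0.15 and -0.16 for siRNA 1 and siRNA 2 (limma, Benjamini-Hochberg adjusted p = 0.253 and 0.198). PRPF19, the ubiquitin ligase of the complex named after it, was at -0.06 and -0.08, and PRPF38A, a B complex protein, at -0.04 and 0.01.

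UHMK1 was the member that rose. It encodes KIS, a kinase that phosphorylates SF1, and so stands here beside the factors of 3′ splice site recognition. Its signal was 8.03 and 7.91 with siRNA 1, 9.43 and 9.51 with siRNA 2 and 7.86 and 7.92 with control siRNA. The siRNA 2 arrays lay far above the other 4, which overlapped with one another. It rose by 1.58 ± 0.08 with siRNA 2, to 2.99 times the control signal (limma, Benjamini-Hochberg adjusted p = 0.000142), and was at 0.08 ± 0.08 with siRNA 1 (adjusted p = 0.646).

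SF1 itself, the branch point binding protein, was not called. It had 8.52 and 8.69 with siRNA 1, 8.69 and 8.62 with siRNA 2 and 8.77 in each control array. All 4 arrays lay below both control arrays, at -0.16 with siRNA 1 and -0.12 with siRNA 2 (limma, Benjamini-Hochberg adjusted p = 0.340 and 0.465). U2AF1, the small subunit that reads the AG at the end of the intron, was at -0.19 with siRNA 1 (adjusted p = 0.164) and -0.00 with siRNA 2, and U2AF2, the large subunit that binds the polypyrimidine tract, at -0.03 and -0.00. RBM39, a U2AF-related splicing factor, was at -0.08 and 0.05.

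**Figure D2:**
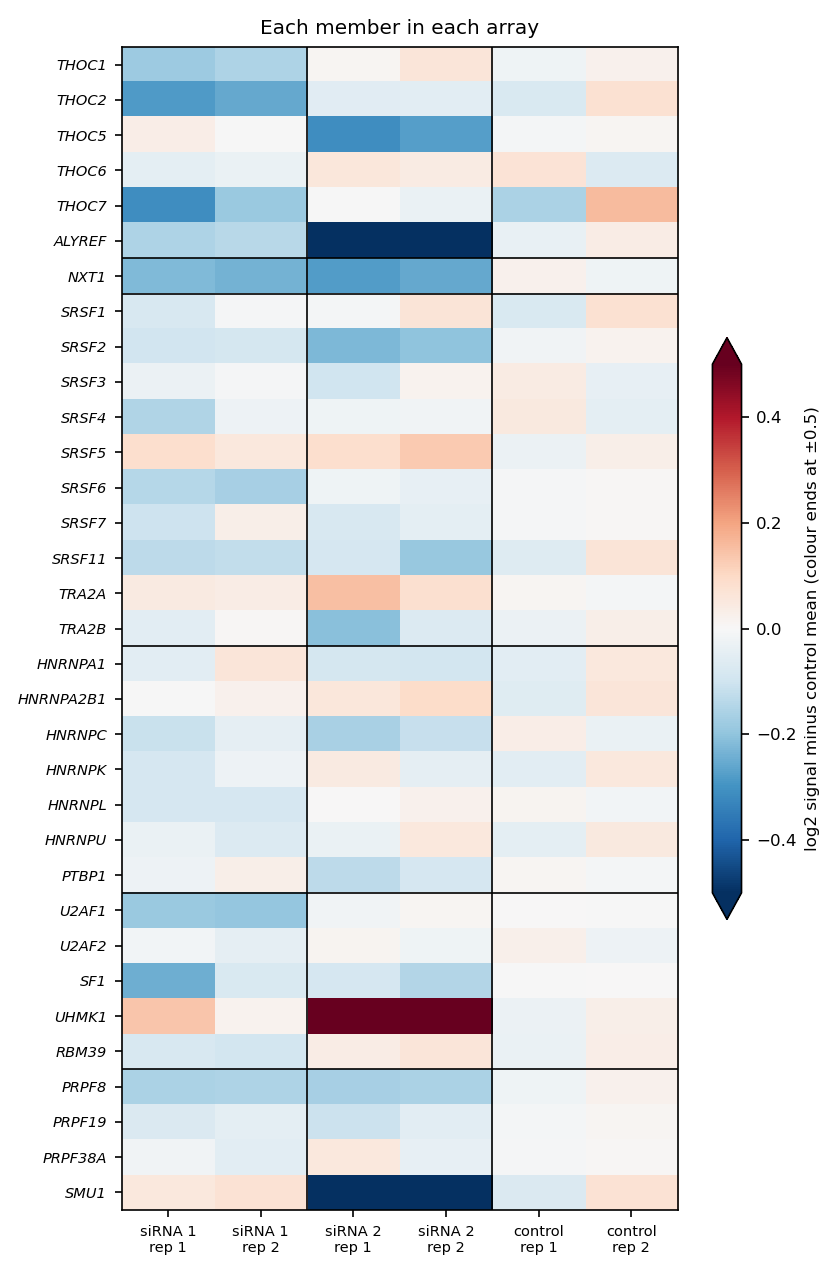
Each of the 33 members (rows, in the order of their roles, separated by lines) in each of the 6 arrays (columns), as log2 signal minus the mean of the 2 control arrays, with blue lower, red higher and colours ending at 0.5 in either direction. The siRNA 2 arrays of ALYREF, SMU1 and UHMK1 pass the ends of the scale, and the other cells are paler.

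The SR proteins and the related Tra2 proteins, 10 of the 11 listed, had no called member with either siRNA, although SRSF2 was called with siRNA 2 under the stricter filter and under the prior with a trend. With 4.66% and 6.83% of all genes tested called with siRNA 1 and siRNA 2, no call among 10 genes is not set apart from the background. The changes of the 10 ran from -0.15 to 0.07 with siRNA 1 and from -0.21 to 0.12 with siRNA 2, with medians of -0.04 and -0.03. SRSF2, an SR protein of nuclear speckles, had the lowest value with siRNA 2: it was at 9.61 and 9.62 with siRNA 1, 9.49 and 9.51 with siRNA 2 and 9.69 and 9.73 with control siRNA. These arrays did not overlap between any of the 3 groups, and the changes were -0.09 with siRNA 1 and -0.21 ± 0.06 with siRNA 2 (limma, Benjamini-Hochberg adjusted p = 0.513 and 0.109).

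SRSF5 and TRA2A were the highest of this family. SRSF5, an SR protein, had 7.61 and 7.58 with siRNA 1, 7.61 and 7.65 with siRNA 2 and 7.49 and 7.55 with control siRNA. TRA2A, a Tra2 splicing activator, had 7.59 and 7.58 with siRNA 1, 7.69 and 7.62 with siRNA 2 and 7.55 and 7.54 with control siRNA. In both genes all 4 MYEOV siRNA arrays lay above both control arrays, by 0.07 and 0.11 for SRSF5 and by 0.04 and 0.12 for TRA2A with siRNA 1 and siRNA 2, with limma Benjamini-Hochberg adjusted p from 0.378 to 0.805. SRSF6, an SR protein that binds exonic enhancers, was at -0.15 with siRNA 1 and -0.03 with siRNA 2, and SRSF11, an SR-related protein, at -0.13 and -0.14, and with both siRNAs all arrays of both genes lay below both control arrays. SRSF7, an SR protein with a zinc knuckle, and TRA2B, the other Tra2 activator, lay below both control arrays with siRNA 2, at -0.06 and -0.14, and overlapped with them with siRNA 1, at -0.04 and -0.02. SRSF1, SRSF3 and SRSF4 overlapped with control under both siRNAs, at -0.04, -0.02 and -0.09 with siRNA 1, while siRNA 2 gave 0.03, -0.04 and -0.02 in that order.

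The 7 hnRNPs measured of 8 listed, PTBP1 among them, had no called member either. With 4.66% and 6.83% of all genes tested called with siRNA 1 and siRNA 2, no call among 7 hnRNPs is not set apart from the background. These RNA-binding proteins coat nascent transcripts, and PTBP1 represses exons near its pyrimidine-rich sites. Their changes ran from -0.08 to 0.01 with siRNA 1 and from -0.14 to 0.07 with siRNA 2. HNRNPC was lowest with siRNA 2, at -0.14 (limma, Benjamini-Hochberg adjusted p = 0.314), and HNRNPA2B1 was highest, at 0.07 (adjusted p = 0.621). HNRNPC lay below both control arrays with siRNA 1 too, at -0.08, as did HNRNPL, a CA-repeat binding protein, at -0.08 with siRNA 1 and 0.01 with siRNA 2. HNRNPA1 and PTBP1 lay below both control arrays with siRNA 2, at -0.09 and -0.11, and were at 0.01 and 0.00 with siRNA 1. HNRNPK and HNRNPU overlapped with control under both siRNAs, at -0.05 and -0.05 with siRNA 1 and -0.00 and 0.01 with siRNA 2. HNRNPA1 and HNRNPC have processed pseudogenes, so their signals may include other loci.

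**Figure D3:**
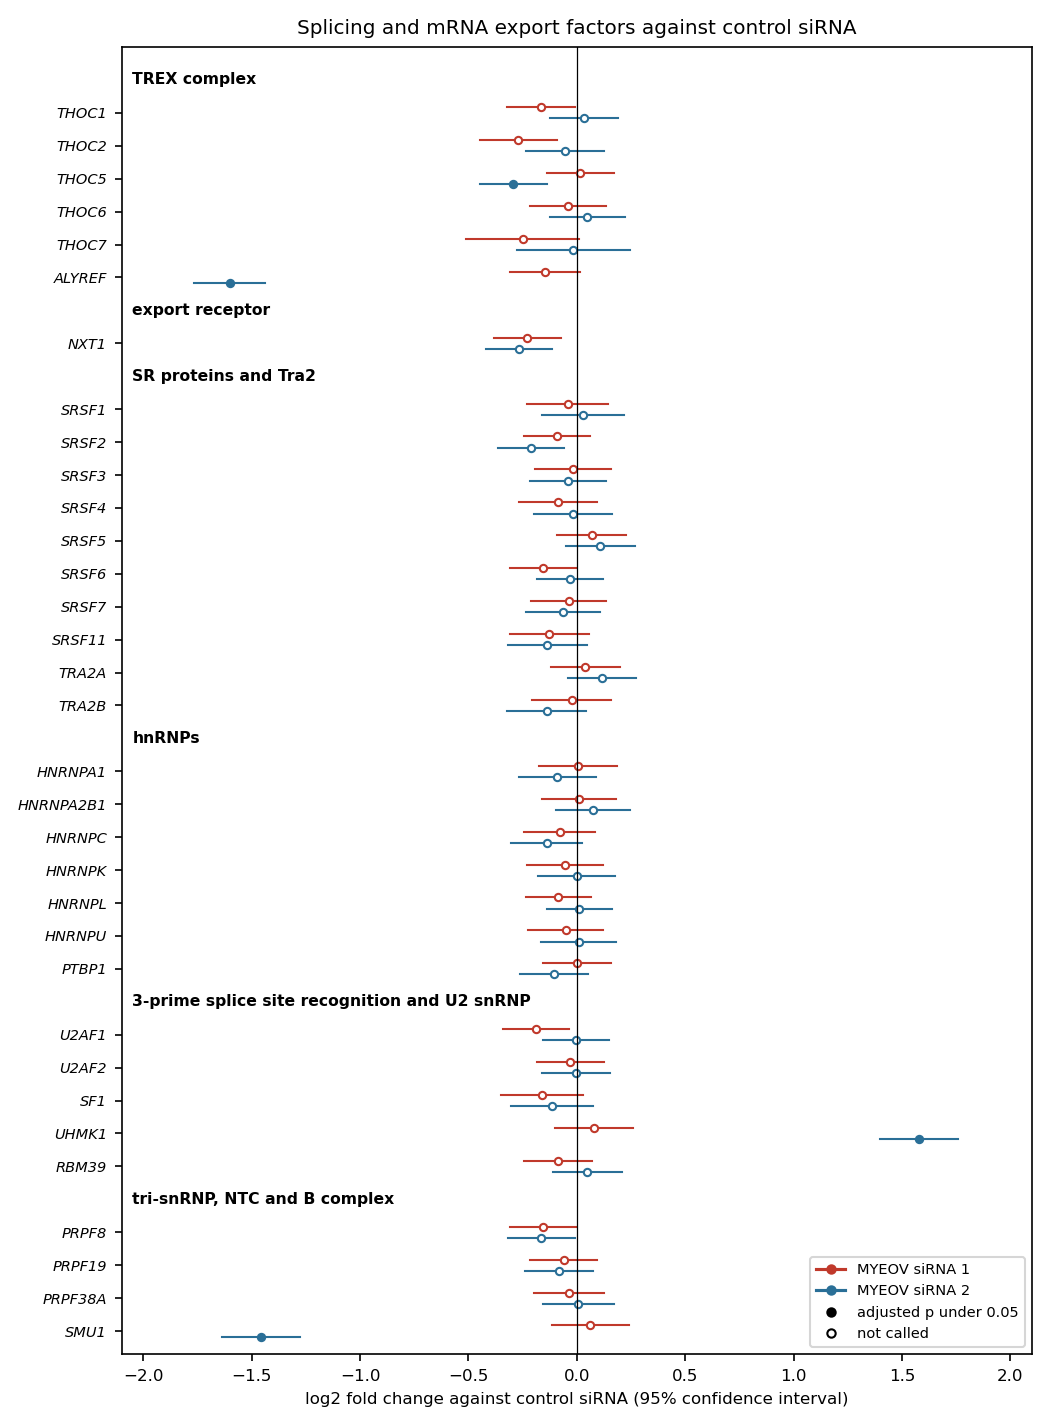
The log2 fold change of each of the 33 members against control siRNA, grouped by role, with its 95% confidence interval from limma; red points are MYEOV siRNA 1, blue points MYEOV siRNA 2, and filled points passed the test. The 4 filled points are ALYREF, THOC5, SMU1 and UHMK1 with siRNA 2, and every other interval lies between -0.51 and 0.27.

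With siRNA 1, then, 0 of the 33 members were called by limma, against 4.66% of all genes tested (2.28% higher and 2.38% lower), and 6 (18.2%) had an unadjusted p under 0.05, against 19.2% of all genes tested, so their number was no larger than the background. Those 6 were THOC1, THOC2, NXT1, SRSF6, U2AF1 and PRPF8, all lower than control. The lowest adjusted p was 0.103. A stricter filter, at the 75th percentile of the mean signal, called THOC2 and NXT1, which is 2 of the 30 members it kept. Limma's prior with a trend and robust estimation called THOC2, 1 of 33 members. Those settings also called more of all genes with siRNA 1, 425 of 3721 tested and 501 of 7442 tested. With siRNA 2, 4 of the 33 (12.1%) were called, 1 higher and 3 lower, against 6.83% of all genes tested, 2.59% higher and 4.23% lower. ALYREF, SMU1 and UHMK1 were put on the list with their results known, so this share is no independent support for a change of the family. Among the other 30, 1 was called (3.33%). The stricter filter called 5 of the 30 members it kept, with NXT1 and SRSF2 added and ALYREF not tested. The prior with a trend called 6 of 33, with the same additions. Of all genes tested with siRNA 2, those settings called 574 of 3721 and 695 of 7442. The 29 members not called with siRNA 2 had changes from -0.27 to 0.12, and their confidence intervals stayed between -0.42 and 0.27.

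Most members were slightly below control with siRNA 1. Of the 33, 25 were lower (75.8%) and 8 higher, with a median of -0.05, against 50.8% lower and a median of -0.00 over all genes tested. Both siRNA 1 arrays lay below both control arrays in 16 members (48.5%) and above them in 2 (6.06%), where 24.4% and 24.4% of all genes tested did so. With siRNA 2, 22 of the 33 were lower (66.7%, against 49.8%), with a median of -0.03 (against 0.00), and the arrays did not overlap in 15 lower members (45.5%) and 4 higher (12.1%), against 25.6% and 25.0%. These counts include ALYREF, SMU1 and UHMK1, listed with their results known. Among the other 30 members the siRNA 2 arrays did not overlap with control in 13 lower (43.3%) and 3 higher (10.0%). After quantile normalization the medians of the members were closer to 0, at -0.02 with siRNA 1 and -0.01 with siRNA 2, when the medians of all genes tested were 0.01 and 0.02. Both comparisons use the same 2 control arrays.

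The siRNAs differed from each other in the same 4 members. With siRNA 1 over siRNA 2, ALYREF was higher by 1.45 ± 0.07, SMU1 higher by 1.52 ± 0.08 and UHMK1 at -1.50 ± 0.08 (limma, Benjamini-Hochberg adjusted p = 0.000144 for each). THOC5 was higher by 0.31 ± 0.07 (adjusted p = 0.0304). That is 4 of 33 members (12.1%), 3 higher and 1 lower, against 9.15% of all genes tested (5.37% higher and 3.78% lower). ALYREF, SMU1 and UHMK1 were put on the list with their results known, so this share is no independent support either. Among the other 30 members, 1 was called (3.33%). For THOC5 the adjusted p was 0.152 and 0.123 without siRNA 1 replicate 1 and 2, and 0.152 and 0.112 without siRNA 2 replicate 1 and 2. THOC2 and THOC1 were lower with siRNA 1 than with siRNA 2 in every array, at -0.21 and -0.20, and did not pass the test (adjusted p = 0.137 and 0.116). The stricter filter, which did not test ALYREF, called THOC1 beside SMU1, THOC5 and UHMK1, 4 of the 30 members it kept. It called 684 of all 3721 genes it tested.

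**Figure D4:**
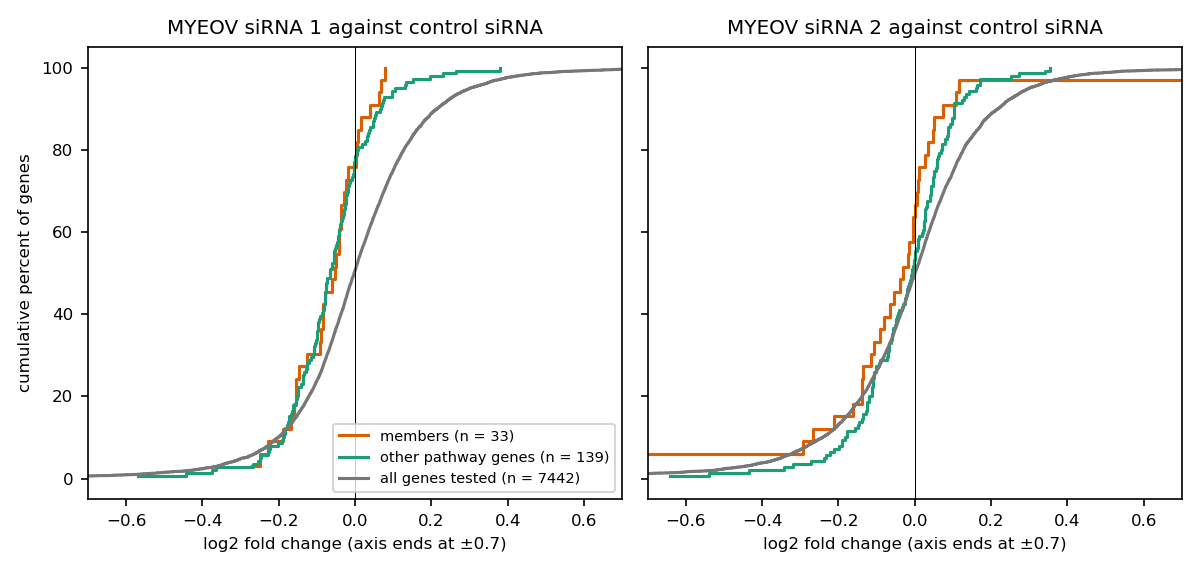
Cumulative percent of genes (vertical axis) by log2 fold change against control siRNA (horizontal axis, ending at 0.7 in either direction), for the 33 members, 139 other genes of splicing, export and mRNA 3′ end processing and all 7442 genes tested, with MYEOV siRNA 1 on the left and siRNA 2 on the right. With siRNA 1 the members and the other pathway genes lie left of all genes over most of the range, with 75.8% and 78.4% of them below 0, against 50.8%.

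Other genes of the pathway were taken from 7 lists of 216 genes, of which 139 were tested. With siRNA 1, 1 rose and 3 fell (2.88% called, against 4.66% of all genes tested); 109 of the 139 (78.4%) were below control, with a median of -0.07. With siRNA 2, 2 rose and 4 fell (4.32%, against 6.83%), and 75 (54.0%) were below control, with a median of -0.01. The sign of that median was not stable: it was 0.01 after quantile normalization (65 of 139 below control) and 0.01 without control replicate 2 (67 of 139), against -0.03 without control replicate 1. The lists and their called genes, with siRNA 1 then siRNA 2, were as follows. The snRNP and U2 proteins (29 tested) had 1 higher and 1 lower, then 1 higher. The catalytic and PRPF19 complex proteins (30) had 0, then 0, with 4 (13.3%) and 2 (6.67%) at an unadjusted p under 0.05, against 19.2% and 22.2% of all genes tested. The other SR, hnRNP and splicing regulators (37) had 1 lower, then 2 lower. The SR protein kinases (7) had 0, then 1 lower. The exon junction complex and nonsense-mediated decay factors (6) had 0, then 0, with 1 and 1 (16.7% each) at an unadjusted p under 0.05, against the same 19.2% and 22.2%. The other export and nuclear pore factors (24) had 1 lower, then 1 higher. The cleavage and polyadenylation factors (6) had 0, then 1 lower.

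SRPK2, a kinase that phosphorylates SR proteins, had the largest change among these genes. It was at 7.32 and 7.34 with siRNA 1, 6.99 and 6.92 with siRNA 2 and 7.54 and 7.65 with control siRNA. The 3 groups did not overlap. With siRNA 2 it fell by 0.64 ± 0.07 (limma, Benjamini-Hochberg adjusted p = 0.00320). HNRNPF, an hnRNP that binds G-rich sequences, had 10.48 and 10.49 with siRNA 1, 9.96 and 9.94 with siRNA 2 and 10.50 and 10.48 with control siRNA. It fell by 0.54 ± 0.06 with siRNA 2 (adjusted p = 0.00391), and the siRNA 1 and control arrays overlapped. SRPK2 and HNRNPF also differed between the siRNAs, by 0.37 and 0.54 for siRNA 1 over siRNA 2 (adjusted p = 0.0233 and 0.00348). That difference in SRPK2 was not called without siRNA 1 replicate 1 or 2, or siRNA 2 replicate 1 or 2 (adjusted p = 0.107, 0.124, 0.0790 and 0.121).

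PCBP1, a poly(C)-binding protein, fell with both siRNAs. It was at 10.34 and 10.46 with siRNA 1, 10.57 and 10.68 with siRNA 2 and 10.98 and 10.95 with control siRNA, which is -0.57 ± 0.08 with siRNA 1 and -0.34 ± 0.08 with siRNA 2 (limma, Benjamini-Hochberg adjusted p = 0.0114 and 0.0455). The siRNA 1 call was lost without either siRNA 1 array or either control array (adjusted p = 0.0539 to 0.0729), and the siRNA 2 call without any 1 of the 6 arrays (0.0721 to 0.191). SNRNP27, a tri-snRNP protein, rose with both, by 0.38 and 0.35 (adjusted p = 0.0409 and 0.0394). Its calls too were lost without any 1 of the 6 arrays (0.0573 to 0.200 and 0.0737 to 0.174), and its second, dimmer row was at -0.06 and 0.12.

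PRPF3, a tri-snRNP protein, fell by 0.44 with siRNA 1, and NCBP3, which binds capped mRNA, fell by 0.37 (limma, Benjamini-Hochberg adjusted p = 0.0391 and 0.0401). With siRNA 2, NUDT21, a subunit of the cleavage factor that selects poly(A) sites, fell by 0.43, and FYTTD1 (UIF), an export adaptor that binds DDX39B and NXF1, rose by 0.34 (adjusted p = 0.0232 and 0.0303). The PRPF3 call was lost without either siRNA 1 array or either control array (adjusted p = 0.135 to 0.185), and the NCBP3 and FYTTD1 calls without any 1 of the 6 arrays (0.0710 to 0.203 and 0.0599 to 0.135). The NUDT21 call (siRNA 2) was lost without either siRNA 1 array, either siRNA 2 array or control replicate 2 (0.0537 to 0.115). Between the siRNAs, PPIL1, NCBP3 and SNRPB2 were lower with siRNA 1 than with siRNA 2, by -0.42, -0.40 and -0.32 (adjusted p = 0.0121, 0.0201 and 0.0294), each not called without at least 1 array (highest adjusted p = 0.0788, 0.117 and 0.145).

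**Figure D5:**
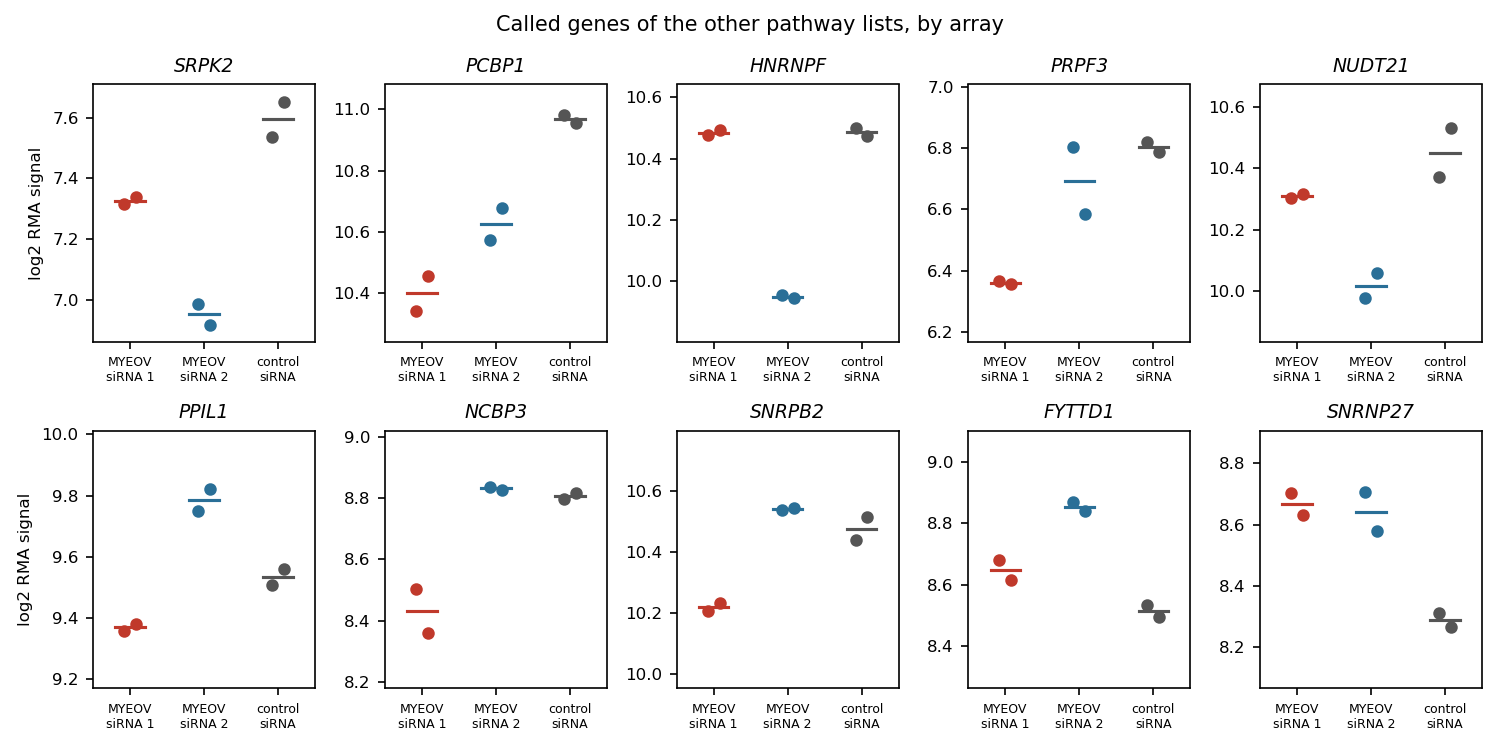
The log2 RMA signal (vertical axis, a separate range for each gene that does not start at 0) of the 10 other pathway genes called in any of the 3 comparisons, by group, with 1 point per array and a line at the mean of the 2 arrays. SRPK2, HNRNPF and NUDT21 are lowest with siRNA 2, PRPF3, NCBP3 and SNRPB2 are lowest with siRNA 1, and PCBP1 is lower with both than with control siRNA.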

How the data were processed

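The deposited values are log2 signals from Affymetrix whole-transcript arrays, which the authors made with RMA; the method is named per the submitters' processing notes, without a version. RMA subtracts background, gives all arrays 1 distribution, combines the probes of a transcript and compresses changes of dim ones. The array medians lay between 4.08 and 4.10. The table holds 53617 rows, of which the platform annotation gave 1 gene symbol to 16098, several to 0 and none to 37519, unnamed here. All 16098 matched the RefSeq gene table of GRCh38.p14. For the 779 genes with several rows, the row with the highest mean was used.

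The fit over all 6 arrays used lmFit and eBayes of limma 3.58.1 under R 4.3.3, with 3 residual and 4.09 prior degrees of freedom. The limma fit was tested on simulated data, for siRNA 2 against control. The simulated spread was drawn from limma's own fitted prior, so that test cannot show how the fit does where this prior is wrong. An exact permutation of 2 arrays against 2 cannot go below p = 0.333, so calls rest on spread shared between genes. The number of arrays limits the precision. The members and lists were chosen with earlier results of these data known. Named genes were the target, members called in any comparison, the 2 most changed members per direction and siRNA, members whose arrays lay apart from control, and up to 4 called genes per direction and comparison from the other lists. Alternatives were other filters, row rules, normalizations, array sets, weights, priors, the replicate number as a block, and each array left out. Promoter sequences came from RefSeq tables. Tables and figures were made in Python 3.11.15 with matplotlib 3.10.9.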

Additional observations from a re-analysis of the deposited data

Results flagged for a closer look

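In 4 members the response to MYEOV siRNA 1 differed from the response to MYEOV siRNA 2 by limma's own test of that difference, with Benjamini-Hochberg adjustment over all 7442 genes. For siRNA 1 minus siRNA 2, the log2 difference was 1.45 for ALYREF, 1.52 for SMU1 and -1.50 for UHMK1 (adjusted p = 0.000144 for each), and 0.31 for THOC5 (adjusted p = 0.0304). Groups of 2 arrays are too small for a test of outlying arrays.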

How the results depend on the processing

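With siRNA 2, and between the siRNAs, ALYREF, SMU1 and UHMK1 were called in every alternative that tested them (ALYREF fell under the 75th percentile filter and was not tested there). THOC5 was called in 6 of 16 alternatives with siRNA 2 and in 11 of 16 between the siRNAs. All genes called numbered 347, 508 and 681 for siRNA 1, siRNA 2 and siRNA 1 against siRNA 2. They numbered 39, 139 and 195 with no filter, where 14884 genes were tested, and 331 for siRNA 2 with only the arrays of the groups compared. With 1 array left out they ran from 58 to 235, 207 to 331 and 226 to 618, where fewer arrays were fitted. Members called numbered 0, 4 and 4. With siRNA 1 the stricter filter gave 2, and limma's prior with a trend and robust estimation gave 1. Those settings called 425 of 3721 and 501 of 7442 of all genes tested with siRNA 1. The cause was not tested. With ALYREF, SMU1 and UHMK1 not counted, chosen after seeing the data, 1 was called with siRNA 2 and 1 between the siRNAs. With 1 array left out they ran from 0 to 0, 3 to 3 and 3 to 4. With the replicate block, 420, 702 and 922 genes and 0, 5 and 4 members were called, NXT1 being the added call with siRNA 2. The labels do not state that the numbers pair arrays; the differences between replicate 1 and replicate 2 correlated across genes between groups at 0.251, 0.265 and 0.205. The low number of arrays limits all calls, and changes of dim genes are understated by RMA.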

Other observations

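The nearest tested genes on either side of the 4 called members were read for their own changes with MYEOV siRNA 2. Beside ALYREF, ARHGDIA was at 0.07 and ANAPC11 at -0.19 (limma, Benjamini-Hochberg adjusted p = 0.584 and 0.214). Beside SMU1, TMEM215 was at 0.23 and BAG1 at 0.32 (adjusted p = 0.0954 and 0.0799), both opposite in sign to SMU1. Beside UHMK1, ATF6 was at 0.06 and UAP1 at 0.04 (adjusted p = 0.753 and 0.808). Beside THOC5, EWSR1 was at 0.03 and NIPSNAP1 at -0.01 (adjusted p = 0.835 and 0.959). Of the 16 genes within 2 tested places of a called member, 1 was called with siRNA 2 (6.25%, against 6.83% of all genes tested, so no more than the background): NF2, the merlin tumour suppressor and the second tested gene beyond THOC5, at -0.67 (adjusted p = 0.00311).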
